A study of Mus musculus with 6 samples.

Results

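The CXC chemokine cluster of mouse chromosome 5 is a run of small genes for secreted proteins that attract white blood cells. The genes followed were Cxcl1, Cxcl2, Cxcl3, Cxcl5, Ppbp and Pf4, chosen by name, and all of their non-control probes were taken. The array holds 1 probe for each, so 6 of its 41174 distinct non-control probes are described here, 6 of the 30583 that passed the filter on dim signals, which stand for 22213 distinct genes or transcripts. The files print the current symbol for 3 of the genes and older names for the others (Gm1960 for Cxcl3, Cxcl7 for Ppbp, Cxcl4 for Pf4). These 3 were matched through the RefSeq accession of the probe.

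The cells were dermal fibroblasts of C57BL/6 mice, the matrix-producing cells of the skin, grown in DMEM with antibiotics and 10% FBS. They received IL-1 (interleukin-1) at 20 ng/ml and were taken after 1, 2 or 4 h. The untreated cells (0 h) were the control and were present on every array. Each of the 6 Agilent 2-colour arrays paired treated RNA of 1 time with untreated RNA, and a pair of arrays per time formed a dye swap. Replicate 1 had the treated RNA in Cy5 and replicate 2 had it in Cy3. The labels name neither the form of IL-1 nor the number of mice or cultures.

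CXC chemokines are named for the spacing of their first cysteines. Those with a glutamate, leucine and arginine motif before these cysteines, Cxcl1, Cxcl2, Cxcl3, Cxcl5 and the processed product of Ppbp among them, draw neutrophils through the receptor Cxcr2, whereas Pf4 (platelet factor 4) lacks the motif. IL-1 acts through MyD88 to activate NF-kB, a transcription factor that enters the nucleus and binds short sequences in promoters, and the mRNAs of several of these chemokines carry AU-rich elements that shorten or lengthen their life. In skin, fibroblasts are a known source of such chemokines, while Ppbp and Pf4 are best known as products of megakaryocytes and platelets.

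A ratio is given as the log2 ratio of treated over untreated after background correction and loess normalization. The value after ± is the distance of either dye orientation from their mean, which is a technical error only, since the arrays of a time are labelled as a dye swap and were counted as 1 sample. Over all tested probes this distance had a median of 0.0620 and a 95th percentile of 0.197 on the log2 scale. With an adjusted p beside it, the value after ± is instead the standard error (SE) of the limma fit. The samples of that fit are the 3 times, so the SE of a mean response includes the change with time. Directions follow the dyes in the labels. The deposited value table equals the processed log2 ratios of the other array of each time point for 100% of 43790 spots (tolerance 0.001), so the columns of each pair stand exchanged against the scanner files. If the scanner files were the exchanged ones, every ratio here would change sign. The deposited values, described as treated over untreated, had the sign used here for Cxcl1, with a mean of 6.82 at 1 h. All 6 cluster probes were well above local background on all 6 arrays in both channels, and none was saturated. That flag is permissive, being carried by up to 14.3% of the 314 negative control spots in Cy3 and up to 2.55% in Cy5. In bulk RNA of this kind, fewer cells making a transcript and less of it per cell cannot be told apart.

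The promoters are shown to set those of 3 raised genes, Cxcl1, Cxcl2 and Cxcl3, beside those of Ppbp and Pf4. Whether any sequence in them bears on the response was not tested. The stretches hold the last 130 bases before the annotated start site, from RefSeq on GRCm38.p6, plus strand, with capitals marking the bases covered by matches to the NF-kB consensus on either strand. The RefSeq table held 5 of the 6 genes. Cxcl5 had no entry in that table.
Cxcl1, chr5:90891115-90891244: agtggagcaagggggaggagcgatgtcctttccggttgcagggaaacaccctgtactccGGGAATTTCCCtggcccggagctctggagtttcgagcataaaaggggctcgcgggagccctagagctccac
Cxcl2, chr5:90903769-90903898: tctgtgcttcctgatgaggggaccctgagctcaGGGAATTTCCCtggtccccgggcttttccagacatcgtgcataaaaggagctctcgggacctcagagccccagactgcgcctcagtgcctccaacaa
Cxcl3, chr5:90785971-90786100: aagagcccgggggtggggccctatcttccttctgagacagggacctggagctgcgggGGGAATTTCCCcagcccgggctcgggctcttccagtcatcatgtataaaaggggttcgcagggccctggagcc
Ppbp, chr5:90768388-90768517: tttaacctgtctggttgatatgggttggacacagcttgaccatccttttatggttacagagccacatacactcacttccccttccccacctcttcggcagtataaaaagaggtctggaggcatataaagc
Pf4, chr5:90772305-90772434: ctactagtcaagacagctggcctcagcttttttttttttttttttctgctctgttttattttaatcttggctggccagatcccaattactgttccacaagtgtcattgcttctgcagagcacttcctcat

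The promoters of Cxcl1, Cxcl2 and Cxcl3 each hold the same 10 bases, GGGAATTTCC, on the plus strand. They lie from position -71 to -62 in Cxcl1, from -97 to -88 in Cxcl2 and from -73 to -64 in Cxcl3, counted from the start site. This decamer occurs on either strand in 29 of 32851 mouse promoters of 300 bases (0.0883%), and it was picked after these sequences were seen. The looser pattern GGGNNTTTCC, which contains the decamer, occurs in 535 of them (1.63%), and the NF-kB consensus, of which the decamer is 1 form, in 2779 (8.46%). None of these patterns was found in the 300 bases searched for Ppbp or Pf4. The letters ATAAAA, part of a TATA box, lie on the plus strand at -34 to -29 in Cxcl1, at -57 to -52 in Cxcl2, at -29 to -24 in Cxcl3 and at -29 to -24 in Ppbp. They occur on either strand in 18.5% of all promoters searched, and in Pf4 on the plus strand after the start site, at 39 to 44. A match is a run of letters and not a measured binding site.

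Of the neutrophil attractants, Cxcl1 had the highest log2 ratio of all 30583 tested probes at each of the 3 times. Its log2 ratio was 6.25 and 6.17 on the 2 arrays at 1 h, 5.40 and 5.57 at 2 h and lastly 5.03 and 4.66 at 4 h (replicate 1 first). The 6 values fall into 3 steps that do not overlap, highest at 1 h and lowest at 4 h. The means were 6.21 ± 0.039 at 1 h, 5.49 ± 0.083 at 2 h and 4.84 ± 0.18 at 4 h. These stand for 73.9-fold, 44.8-fold and 28.7-fold over untreated cells. In brightness of the spot before correction, the treated channel read 22259 and 6787 at 1 h, 12293 and 5523 at 2 h and then 8868 and 2625 at 4 h. The untreated channel read between 177 and 310 on all 6 arrays. It therefore lay at 1.74 to 4.26 times the median of the negative controls of its channel, and the fold rests on a dim denominator. Over the 3 times the mean log2 ratio was 5.51 ± 0.22 (SE, n = 3; limma adjusted p = 0.000312), the highest of all tested probes.

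Cxcl5, made by epithelial and stromal cells in inflamed tissue, was the second most raised of the cluster and went the other way in time. Its log2 ratio was 3.71 and 3.53 at 1 h, 4.43 and 4.25 at 2 h and finally 4.93 and 4.50 at 4 h. In both dye orientations each later time was above the one before. The means were 3.62 ± 0.090, 4.34 ± 0.092 and 4.71 ± 0.22, or 12.3-fold, 20.2-fold and 26.2-fold. By log2 ratio it stood at rank 3 of 30583 at 1 h and at rank 2 at both later times. Its treated channel read 4497 and 1579 at 1 h, 7136 and 2912 at 2 h and lastly 11245 and 3321 at 4 h, against 207 to 395 for untreated RNA. The mean log2 ratio over the 3 times was 4.22 ± 0.18 (SE, n = 3; limma adjusted p = 0.000312).

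Cxcl3, a close relative of Cxcl1 and Cxcl2, was raised less. Its log2 ratio was 1.47 and 1.71 at 1 h, 1.87 and 2.28 at 2 h and then 2.26 and 2.07 at 4 h. The values at 2 h and 4 h overlap, and both lie above those at 1 h. The means were 1.59 ± 0.12 (3.01-fold, rank 26), 2.07 ± 0.21 (4.21-fold, rank 13) and 2.17 ± 0.096 (4.50-fold, rank 9). Untreated brightness was 109 to 129, only 1.20 to 1.71 times the median of the negative controls, against 240 to 682 in the treated channel. With the scanner's processed signals the folds were 6.97, 9.79 and 10.7. Over the 3 times the mean log2 ratio was 1.94 ± 0.10 (SE, n = 3; limma adjusted p = 0.000466).

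Cxcl2, which like Cxcl1 is a classical early product of stimulated cells, had a ratio that was lower at each later time. Its log2 ratio was 1.70 and 2.03 at 1 h, 0.77 and 1.09 at 2 h and finally 0.39 and 0.38 at 4 h. The 3 times did not overlap. The means were 1.87 ± 0.16 (3.64-fold, rank 17), 0.93 ± 0.16 (1.91-fold, rank 58) and 0.38 ± 0.0076 (1.30-fold, rank 293). Its untreated channel read 87.7 to 118, only 1.08 to 1.39 times the median of the negative controls, and the treated channel came down from 433 and 251 at 1 h to 132 and 122 at 4 h. Its fold, like that of Cxcl3, depended on how background was treated. Over the 3 times the mean log2 ratio was 1.06 ± 0.24 (SE, n = 3; limma adjusted p = 0.0268), and without the 2 h sample it was 1.12 with an adjusted p of 0.101.

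**Figure D1:**
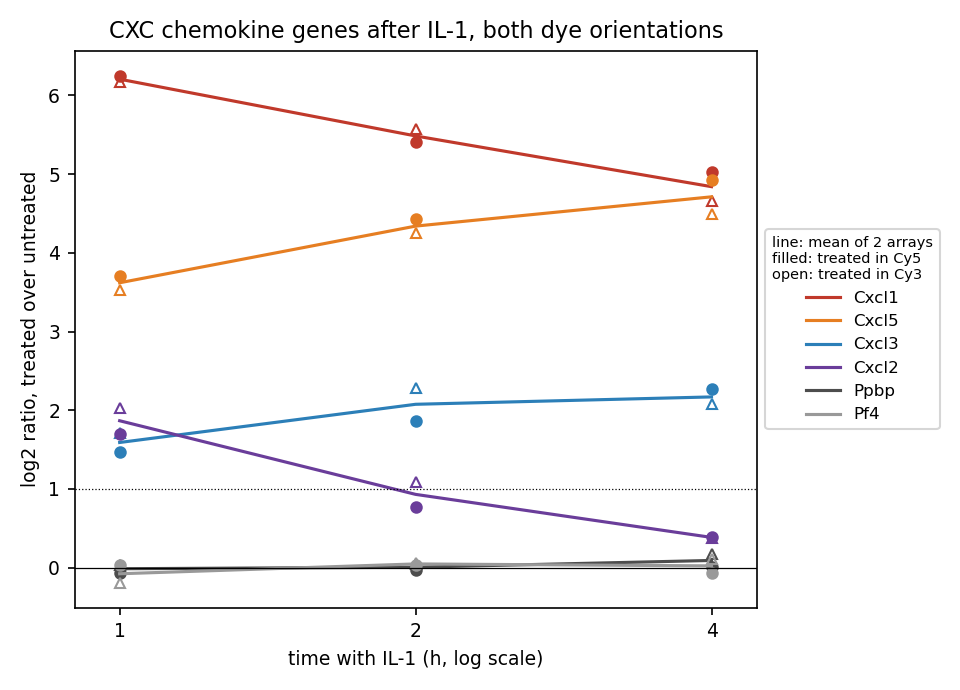
Log2 ratio of treated over untreated RNA (vertical axis) against hours with IL-1 (horizontal axis, log scale) for the 6 cluster genes. Filled circles are arrays with treated RNA in Cy5, open triangles those with it in Cy3, lines join the means of the 2 arrays, and the dotted line marks 2-fold. Cxcl1 goes from 6.21 at 1 h to 4.84 at 4 h while Cxcl5 goes from 3.62 to 4.71, and Ppbp and Pf4 stay near 0.

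The platelet chemokines, which lie between Cxcl5 and Cxcl3 on the chromosome, showed no such change. Ppbp, the precursor of neutrophil-activating peptides released by platelets, had log2 ratios of -0.069 and 0.038 at 1 h, -0.031 and 0.039 at 2 h and lastly 0.0090 and 0.17 at 4 h. Its mean over the 3 times was 0.026 ± 0.029 (SE, n = 3; limma adjusted p = 0.581), with a 95% interval from 0.970-fold to 1.07-fold. Its spot was not at the floor. It read 380 to 463 in Cy5 and 233 to 286 in Cy3, whichever RNA the dye carried, so brightness followed the dye and not the treatment. Pf4, which binds heparin and lacks the neutrophil-attracting motif, had log2 ratios of 0.032 and -0.19 at 1 h, 0.034 and 0.057 at 2 h and then -0.067 and 0.11 at 4 h. The sign differed between the dye orientations at 1 h and at 4 h. The mean was -0.0042 ± 0.031 (SE, n = 3; limma adjusted p = 0.945), with a 95% interval from 0.947-fold to 1.05-fold. Its channels read 119 to 141 with treated RNA and 114 to 137 with untreated RNA. Both intervals leave out the spread of the untreated cells.

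**Figure D2:**
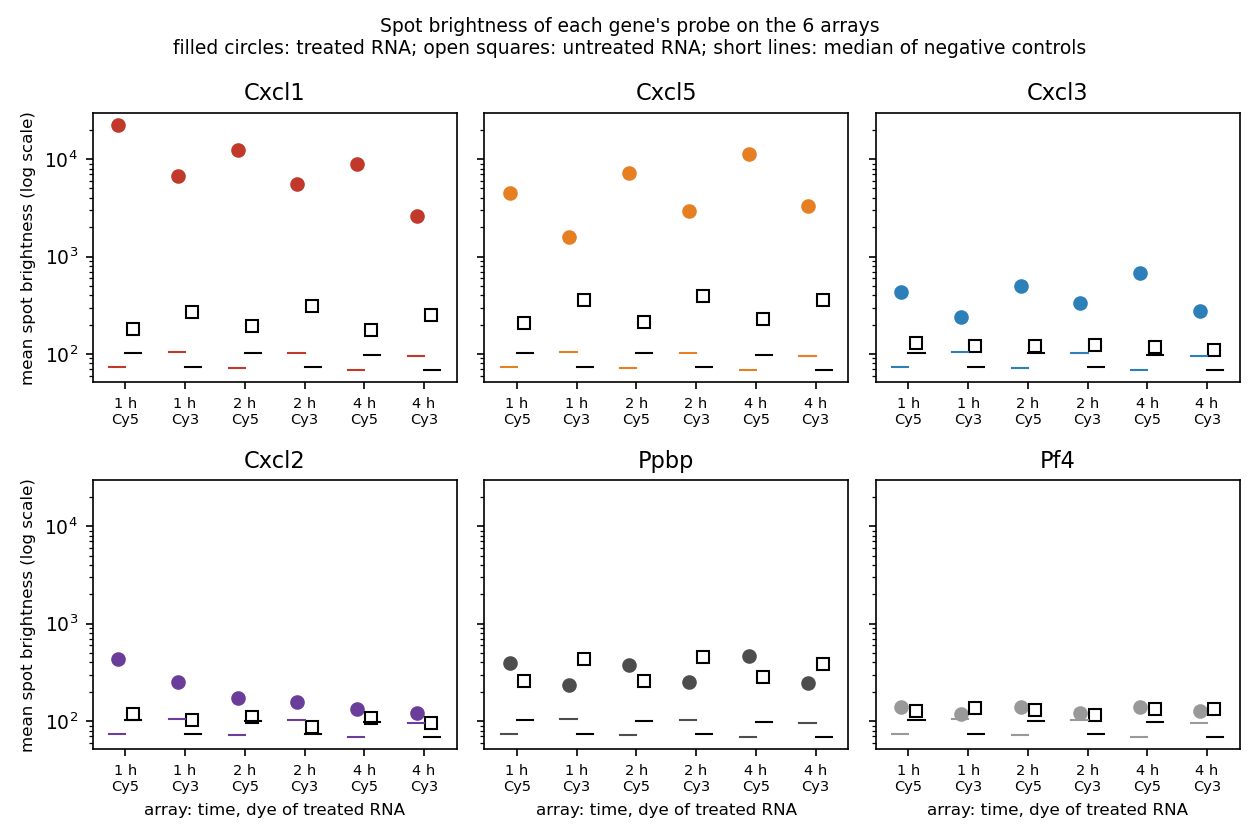
Mean brightness of each gene's spot before background correction (vertical axis, log scale) on the 6 arrays (horizontal axis, time and dye of the treated RNA). Filled circles are treated RNA, open squares untreated RNA, and short lines the median of the negative controls in the same channel. The treated spots of Cxcl1 read 2625 to 22259 against 177 to 310 untreated, whereas treated and untreated Pf4 overlap between 114 and 141.

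By the size rule, a log2 ratio of at least 1 in both dye orientations, 4 of the 6 genes were higher at 1 h, against 0.170% of all tested probes (52 of 30583). At 2 h 3 of the 6 passed, against 0.134% of all (41), and Cxcl2 was short of it in replicate 1 with 0.77. At 4 h 3 of the 6 passed, against 0.111% of all (34). None of the 6 was lower by this rule at 1 h, as against 0.00654% of all probes. The median log2 ratio of the 6 genes was 1.73 at 1 h, 1.50 at 2 h and 1.28 at 4 h, while that of all tested probes was 0.0013, 0.00079 and 0.0023. In the mean response 4 of the 6 rose and 0 fell at a limma adjusted p under 0.05, against 10.5% of all probes that rose and 11.4% that fell. Every ratio has untreated RNA as its denominator, and the spread of the untreated cells is not in this test.

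**Figure D3:**
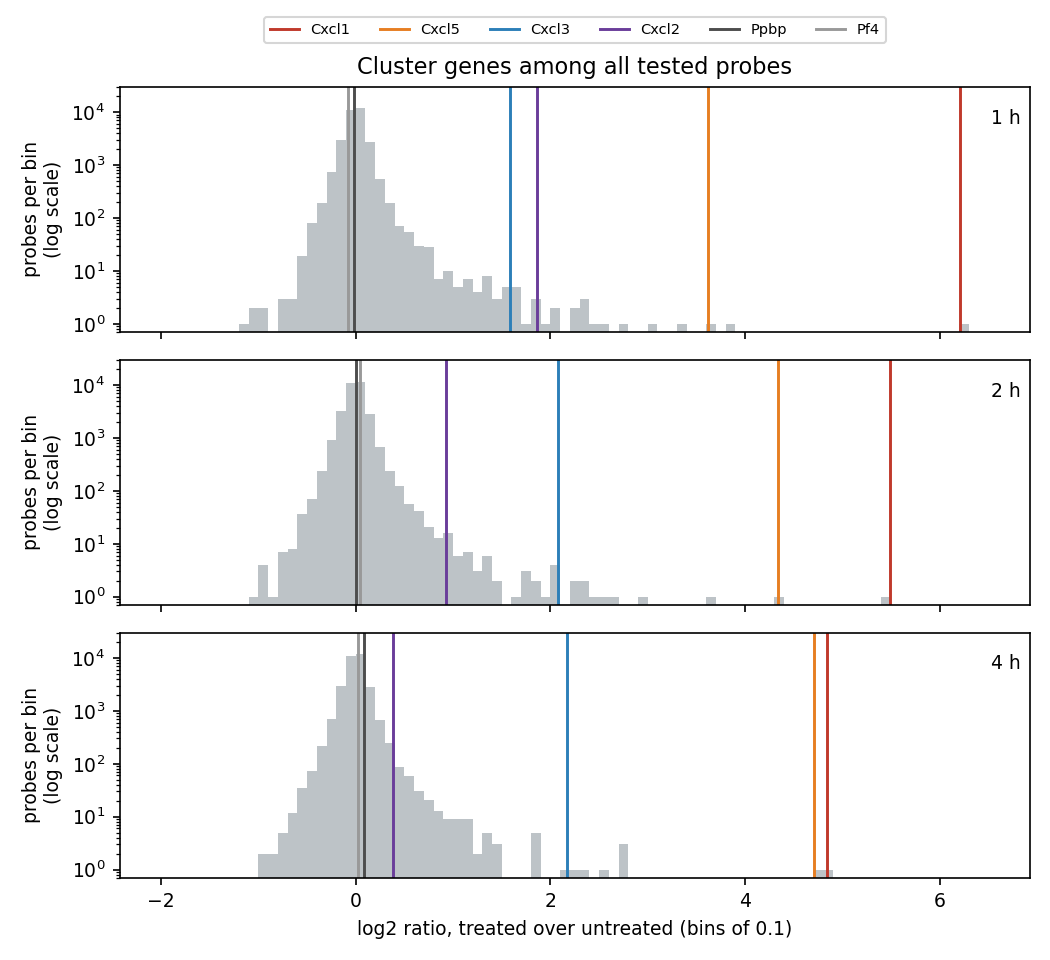
Number of tested probes (vertical axis, log scale) by log2 ratio in bins of 0.1 (horizontal axis) at 1, 2 and 4 h, with vertical lines at the cluster genes. Cxcl1 lies at the right end at every time, Cxcl5 draws close to it by 4 h (4.71 against 4.84), and Ppbp and Pf4 lie in the central peak.

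Over the time course the ratios of Cxcl1 and Cxcl2 fell and that of Cxcl5 rose. Fitted on log2 time, the slope was -0.68 ± 0.029 per doubling of time for Cxcl1 (SE; limma adjusted p = 0.000823) and -0.74 ± 0.051 for Cxcl2 (limma adjusted p = 0.00383). For Cxcl5 it was 0.55 ± 0.047 (limma adjusted p = 0.00888), the third highest of all tested probes. Cxcl3 had 0.29 ± 0.051 and did not pass (limma adjusted p = 0.0889). Ppbp had 0.053 and Pf4 0.050, with adjusted p of 0.608 and 0.668. Thus 2 of the 6 had a falling slope, against 0.242% of all probes, and 1 a rising slope, against 0.196%. With 3 time points the slope has 1 residual degree of freedom. None of the 3 calls held with the scanner's processed signals (adjusted p = 0.533 for each), with an offset of 16 in the background correction (0.248 for Cxcl1 and Cxcl2, 0.434 for Cxcl5) or with a trended robust variance (0.400, 0.118 and 0.532), although each slope kept its sign. Without replicate 2 the adjusted p was 0.0791 for Cxcl1 and 0.0876 for Cxcl2, while Cxcl3 passed with a slope of 0.40 (adjusted p = 0.0452).

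Within a dye orientation, the difference between 1 h and 4 h can be read directly. Cxcl1 was higher at 1 h by 1.22 and 1.51 on the log2 scale, a mean of 2.58-fold. Cxcl2 was higher at 1 h by 1.31 and 1.65, a mean of 2.80-fold. These 2 genes passed the rule of at least 2-fold in both orientations, which 0.0687% of all probes (21) passed. Cxcl5 differed the other way, by -1.22 and -0.97, so that 4 h was 2.13-fold above 1 h, and it missed the rule in replicate 2. That reverse rule was passed by 0 of the 6 genes and by 0.00654% of all probes. Cxcl3 differed by -0.79 and -0.36, in the same direction as Cxcl5.

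Set against each other, Cxcl1 and Cxcl5 drew together and Cxcl2 and Cxcl3 changed order. The log2 ratio of Cxcl1 exceeded that of Cxcl5 by 2.54 and 2.64 at 1 h, by 0.97 and 1.32 at 2 h, and by 0.097 and 0.16 at 4 h. The difference had the same sign on all 6 arrays and was smallest at 4 h, where 1 sample gives no test of it. Cxcl3 was below Cxcl2 in log2 ratio at 1 h (-0.23 and -0.32) and above it at 2 h (1.09 and 1.20) and 4 h (1.87 and 1.70). At 1 h the arrays of Cxcl2 and Cxcl3 overlap, since Cxcl2 had 1.70 on one and Cxcl3 had 1.71 on the other. In order of log2 ratio at 1 h the genes ran Cxcl1, Cxcl5, Cxcl2, Cxcl3, then Ppbp and Pf4, which did not differ beyond their spread. Cxcl1, Cxcl2 and Cxcl3 are close paralogs, and whether their probes also detect each other's transcripts was not tested.

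The 6 genes do not lie in the order of their response. By the probe coordinates in the files, with a genome build not given in the sources used here, the order on chromosome 5 is Cxcl5, Ppbp, Pf4, Cxcl3, Cxcl1 and Cxcl2. The probes start at 90058767, 90067532, 90070837, 90085256, 90209491 and 90222180, and the outer ones lie 163.413 kb apart. Ppbp lies 8.765 kb from Cxcl5, and Pf4 14.419 kb from Cxcl3, so that the 2 genes near a log2 ratio of 0 have raised genes on both sides. The probe starts of Cxcl3 and Cxcl1 lie 124.235 kb apart, and Cxcl2 follows 12.689 kb after Cxcl1. Between Cxcl3 and Cxcl1 lie the probes of Cxcl15 and of an unnamed transcript, which are not among the 6 genes. Counting these, 14 further probes lay between the cluster genes or within 250 kb of the outer ones. Of the 14, 10 were tested. Of these 10, 2 rose in the mean response and 0 fell, against 10.5% and 11.4% of all probes, and 0 reached 2-fold at any time. Rassf6, a RAS association domain gene, rose by 0.14 ± 0.023 (SE, n = 3; limma adjusted p = 0.00890). Ereg, which encodes the growth factor epiregulin, has 2 probes that disagreed. The mean log2 ratio was 0.40 ± 0.041 (SE, n = 3, limma adjusted p = 0.00234) on one and -0.074 (limma adjusted p = 0.0782) on the other. The neighbouring growth factor genes Areg (amphiregulin) and Epgn (epigen) had mean log2 ratios of -0.029 and 0.039 and did not pass. Cxcl15, a further chemokine known from lung whose probe lies between those of Cxcl3 and Cxcl1, did not pass the filter on dim signals. The unnamed transcript between Cxcl3 and Cxcl1 had a mean log2 ratio of 0.0069 and did not pass the test.

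**Figure D4:**
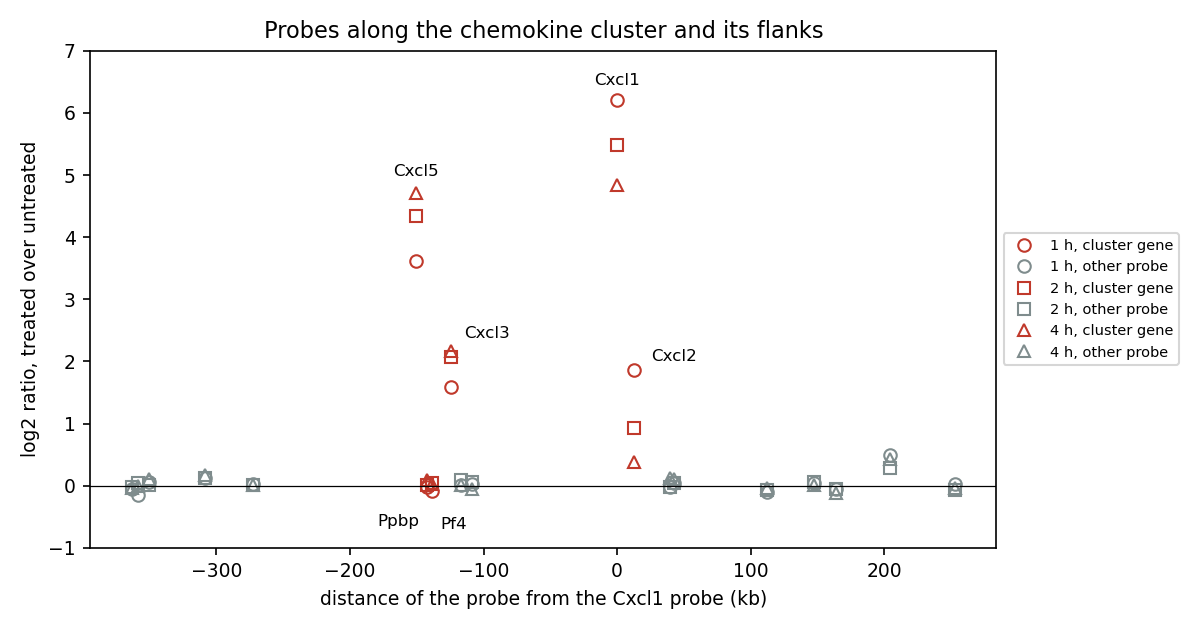
Log2 ratio of treated over untreated (vertical axis) at 1 h (circles), 2 h (squares) and 4 h (triangles) for each probe of the region, by its distance in kb from the Cxcl1 probe (horizontal axis). Red marks are the 6 cluster genes and grey marks other probes. Cxcl5, Cxcl3, Cxcl1 and Cxcl2 stand above the flanking probes at 1 h, while Ppbp and Pf4, between Cxcl5 and Cxcl3, lie at the level of the flanks.

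The decamer of the Cxcl1, Cxcl2 and Cxcl3 promoters was rare among measured genes. Of 12307 named genes with a promoter in the table and a tested probe, 18 held it, and 4 of these 18 (22.2%) passed the size rule at 1 or more times. These were Cxcl1, Cxcl2, Cxcl3 and Nfkbia, which encodes the NF-kB inhibitor IkB-alpha, itself a textbook NF-kB target. Of all 12307 genes 42 (0.341%) passed the size rule. With the 3 chemokines left out, 1 of 15 carriers passed (6.67%), so the share rests on the genes that led to the motif. Among the carriers that did not pass the size rule, Ccr3 had the highest mean log2 ratio, 0.12 (limma adjusted p = 0.0482). Map3k7, the TAK1 kinase of the IL-1 pathway, had 0.031 and Gbp5, a guanylate-binding protein, had 0.053. The median of the mean log2 ratio was 0.018 over the 18 carriers and 0.0030 over all. Of the 227 genes with the looser pattern 11 passed (4.85%), or 8 of 224 (3.57%) without the chemokines. Of the 1421 with the NF-kB consensus 20 passed (1.41%), or 17 of 1418 (1.2%) without the chemokines.

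Most genes on a list of regulators of these transcripts rose. The list was chosen with earlier results of these data known, so its count is a description and not a test. Of 10 genes for transcription and mRNA decay, all tested, 8 rose in the mean response and 0 fell, against 10.5% and 11.4% of all probes, with a median mean log2 ratio of 0.45. Nfkbia had log2 ratios of 3.02, 2.65 and 1.87 at 1, 2 and 4 h (mean 2.51; limma adjusted p = 0.00111). Nfkbiz, whose product IkB-zeta is a nuclear cofactor for secondary NF-kB targets, had 3.37, 2.03 and 1.18 (mean 2.19; limma adjusted p = 0.00906). Zc3h12a, the endonuclease Regnase-1 that cuts inflammatory mRNAs, had 1.91, 1.94 and 1.08 (mean 1.64; limma adjusted p = 0.00200). Its untreated spot was well above background on 5 of 6 arrays, and its mean log2 ratio was 2.30 with an offset of 16 and 3.15 with the processed signals. Nfkbia, Nfkbiz and Zc3h12a were all lower at 4 h than at 1 h, as were Cxcl1 and Cxcl2. The NF-kB subunits Nfkb1 (p105 and p50) and Rela (p65) rose by 0.99 (limma adjusted p = 0.000805) and 0.57 (limma adjusted p = 0.00176). The remaining 3 risers were small: Khsrp, a decay-promoting AU-rich element binder, by 0.32 (limma adjusted p = 0.000944), Traf3ip2, the Act1 adaptor of IL-17 signalling, by 0.16 (limma adjusted p = 0.0459), and Elavl1, the stabilising factor HuR, by 0.14 (limma adjusted p = 0.00811), which turned to -0.015 with median centring. Zfp36 (tristetraprolin, which shortens the life of AU-rich mRNAs) and Arid5a had mean log2 ratios of -0.027 and 0.099 and did not pass. Each of these 2 genes was read on 1 of its 2 probes, and Nfkb1, Rela, Elavl1 and Khsrp likewise on 1 of several.

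The receptors for these ligands were near background. Cxcr1 was well above background on 0 of the 6 arrays with either RNA. The brighter Cxcr2 probe carried the flag on 3 arrays with untreated and 2 with treated RNA, and neither gene passed the filter. Ackr1, a scavenger of chemokines on red cells and venules, had a mean log2 ratio of 0.033 (limma adjusted p = 0.369), with a sign that turned with the processed signals. Of the 8 other CXC chemokines 4 were tested, of which 2 rose and 1 fell, against 10.5% and 11.4% of all probes. Cxcl10, an attractant of T cells through Cxcr3, had log2 ratios of 1.63, 1.35 and 0.40 at 1, 2 and 4 h (mean 1.13; limma adjusted p = 0.0137), a course that like that of Cxcl2 was lower at each later time. Its untreated spot was well above background on 4 of 6 arrays, and its mean log2 ratio was 1.65 with an offset of 16 and 2.72 with the processed signals. Cxcl16, a membrane-bound ligand of Cxcr6, had 0.66, 0.84 and 1.11 (mean 0.87; limma adjusted p = 0.00154). Cxcl14, a chemokine expressed in normal skin, fell, with -0.19, -0.31 and -0.57 (mean -0.36; limma adjusted p = 0.0139). Cxcl12, a constitutive stromal chemokine, had a mean of -0.011 and did not pass.

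The nearest time courses were sought among the 52 other named genes that passed the size rule at any time, by the root mean square difference over the 6 arrays after each orientation's mean was removed. This measure compares the shape in time and not the height. Nearest to Cxcl1 were Gadd45b (0.0888 on the log2 scale), a stress-induced gene of the growth arrest family, Atf3 (0.117), an early stress transcription factor, and Cish (0.157), a cytokine signalling inhibitor. Cxcl2 had Atf3 (0.130), Gadd45b (0.132) and the transcriptional repressor Bhlhe40 (0.165) as its nearest. The log2 ratio of Gadd45b was 1.62, 0.98 and 0.31 at 1, 2 and 4 h, and that of Atf3 1.18, 0.44 and -0.029. For Cxcl3 the nearest were Casp4 (0.0692), an inflammatory caspase, Lrig1 (0.119), a growth factor receptor inhibitor, and Rab32 (0.153), a small GTPase. For Cxcl5 they were Vegfc (0.0970), a lymphatic growth factor, Serpina3g (0.137), a protease inhibitor, and Plscr1 (0.138), a phospholipid scramblase. Vegfc had log2 ratios of 0.26, 0.83 and 1.36, and Casp4 had 0.58, 1.00 and 1.20. The lists for Cxcl1 and Cxcl2 share Gadd45b and Atf3, and those for Cxcl3 and Cxcl5 share no gene.

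Markers bore on the labelled cell type. The 10 fibroblast markers were all tested, with Col1a1, Col1a2 and Vim saturated, and 2 rose (Dcn by 0.46, Fn1 by 0.35) and 1 fell (Col3a1, with a mean of -0.25) in the mean response. Their summed brightness was 143260 to 291169 with treated RNA and 181313 to 289958 with untreated RNA. Of the 8 platelet and megakaryocyte markers 7 were tested and 0 rose or fell, with a sum over 8 probes of 842 to 974 treated and 910 to 983 untreated. Of the 8 macrophage markers 7 were tested, 3 rose (Csf1r by 0.13, Lyz2 by 0.086 and Cd14 by 0.17) and 0 fell, against 10.5% and 11.4% of all probes. With median centring Csf1r had 0.061 and Cd14 0.10, and the sign of Lyz2 turned to -0.073. The summed brightness of the macrophage markers was 3794 to 7415 treated and 3913 to 7084 untreated. The brighter Lyz2 probe alone had a median of 3242 treated and 3634 untreated. The sums cover 21 fibroblast, 16 macrophage and 6 neutrophil probes and include background, so they are not levels to compare between lists. Of the 7 neutrophil markers 6 were on the array (Ly6g had no probe), 1 was tested and 0 changed, with sums of 518 to 645 treated and 530 to 696 untreated. Of 4 keratinocyte markers, all tested, Krt10 fell (mean -0.20) and 0 rose. Their sums over 5 probes were 814 to 1347 treated and 935 to 1415 untreated, and the Krt10 probe used had medians of 360 and 473. Of 4 endothelial markers 2 were tested and 0 changed, with sums over 8 probes of 690 to 883 treated and 696 to 864 untreated. The part of such cells in the chemokine ratios was not tested.

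The size of the response depended on the background treatment more for the dim spots than for the bright ones. With the scanner's processed signals, Cxcl1 had 113-fold, 62.9-fold and 41.8-fold at 1, 2 and 4 h, and Cxcl5 had 16.5-fold, 26.5-fold and 33.7-fold. Cxcl3 had the higher folds given above. Cxcl2 had 10.3-fold, 5.50-fold and 2.12-fold, so that it reached 2-fold at 2 h on both arrays and 4 genes passed there instead of 3. Its mean log2 ratio was then 2.30 with a limma adjusted p of 0.0702. The order of the times within Cxcl1, Cxcl2, Cxcl3 and Cxcl5 was the same in both sets of values, and Ppbp (0.992-fold, 1.01-fold and 1.09-fold) and Pf4 (0.853-fold, 1.09-fold and 0.999-fold) stayed near 1.

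**Figure D5:**
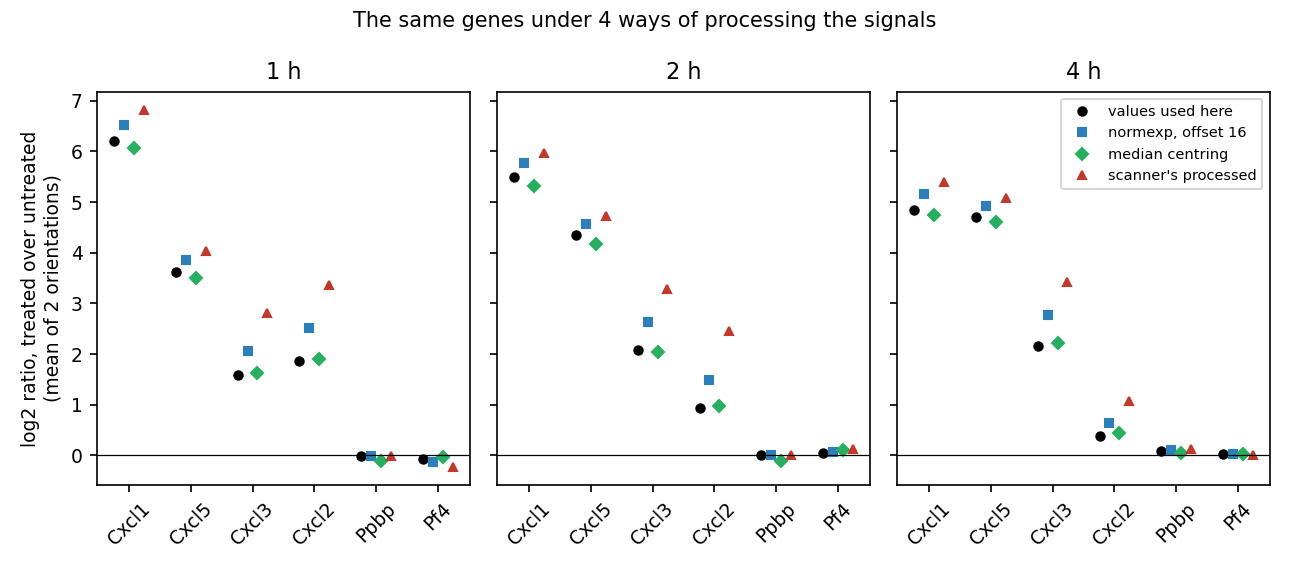
Log2 ratio of treated over untreated (vertical axis, mean of the 2 dye orientations) of the 6 cluster genes (horizontal axis) at 1, 2 and 4 h under 4 ways of processing. Black circles are the values used here, blue squares a background offset of 16, green diamonds median centring in place of loess, and red triangles the scanner's processed signals. The largest shifts are those of Cxcl2 and Cxcl3, for example from 1.87 to 3.36 for Cxcl2 at 1 h.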

How the data were processed

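Total RNA was measured on 6 Agilent 2-colour arrays, 2 per time with the dyes exchanged. Agilent Feature Extraction 7.5.1 read the spots, per the file headers. Its intensity columns give mean spot brightness, the local background and, per the file headers, processed signals after background subtraction and dye normalization. The authors deposited a value table of log2 ratios, treated over untreated, of the processed signals, and its column medians were -0.0260 and 0.0261 (1 h), -0.0309 and 0.0311 (2 h), and -0.0325 and 0.0283 (4 h). No further centring was applied to it. The genome build of the probes was not given in the sources used here.

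In R 4.3.3, limma 3.58.1 corrected mean signals by normexp (offset 50) and normalized each array by loess, with weight 0 for controls. Controls and spots marked as outliers were dropped, saturated spots stayed, and repeated spots were averaged per probe. Probes entered the tests if 1 or more of the 4 conditions had them well above background in its own channel on all of its arrays. The median signal of an array was 124.3 to 137.7 (Cy5) or 121.8 to 127.5 (Cy3), and that of its negative controls 68.4 to 74.1 or 96.3 to 104.4, and the number of arrays limits the precision. Arrays of a time were averaged. The mean response (against 0) and the slope on log2 time were each tested two-sided with limma's lmFit and eBayes, Benjamini-Hochberg adjusted over all probes, threshold 0.05. A single time has 1 sample and no test. Nothing states that samples came from separate cultures or that the untreated RNA was 1 extract; if not, p-values measure just the spread among these samples, which may be technical. They leave out the spread of the control. The samples of the mean test are the 3 times, so its SE, interval and p-value include the change with time and do not measure a spread of replicates. The tests were checked on simulated data.

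All 6 genes were named, with the brightest probe standing for any other gene, and the 3 nearest time shapes per gene that passed the size rule. Members, lists, motifs and tests were chosen with earlier results of these data known. Replicate numbers mark dye orientation per the labels. Same-numbered arrays deviated together from the means of their times (correlations 0.765 to 0.843), which with 2 arrays per time mirrors 1 dye effect per probe. Alternatives were the processed signals, an offset of 16, median centring, no filter, the brightest probe, each orientation alone, a replicate block, a trended robust variance, and leaving out each time. Values from per-sample columns of no sample were not met (0 columns). Figures were drawn with matplotlib 3.10.9 in Python 3.11.15.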

Additional observations from a re-analysis of the deposited data

Results flagged for a closer look

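The response differed between time points for 3 of the 6 genes by the test of the slope per doubling of time. The slope fell in 2 of them, against 0.242% of all tested probes, and rose in 1, against 0.196%. The slope of Cxcl1 was -0.68 (limma adjusted p = 0.000823), with both dye orientations higher at 1 h than at 4 h. Cxcl2 had -0.74 (limma adjusted p = 0.00383), again with both orientations higher at 1 h. Cxcl5 had 0.55 (limma adjusted p = 0.00888), with both orientations higher at 4 h. These slopes rest on 3 samples and lost their call under other background corrections.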

How the results depend on the processing

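The counts of cluster genes at least 2-fold higher were 4 at 1 h, 3 or 4 at 2 h and 3 at 4 h under every alternative run, those rising in the mean response 3 or 4, and no called result of the cluster genes reversed. Mean responses of Cxcl1, Cxcl3 and Cxcl5 passed in every alternative, and that of Cxcl2 was lost with processed signals and without the 2 h sample. Over all probes, processed signals gave 79, 91 and 69 probes at least 2-fold higher at 1, 2 and 4 h, 48 higher at 1 h than at 4 h, and 1032 that rose in the mean response. Median centring gave 25, 22 and 15 probes and 1681 that rose. An offset of 16 gave 52 at 4 h. The slope calls depended most on the setting. Processed signals, an offset of 16 and a trended robust variance left 0 rising and 0 falling slopes by limma, of all probes and of the cluster genes, with 2759, 2794 and 3199 probes at an unadjusted p under 0.05 against 3172. Median centring gave 278 rising and 212 falling slopes (2 cluster genes rising), and the brightest probe per gene gave 36 and 47, with fewer probes tested. With median centring the slope SE was the same 0.0459 for each cluster gene. Their slope calls there thus rest on a shared variance and not on each gene's own fit. With the replicate block (dye orientation as a term) 164 slopes rose and 184 fell, and the cluster genes kept their calls. That setting counted the 6 arrays as separate samples, although the 2 of a time are labelled as a dye swap, so its p-values rest partly on technical repeats. It changed no other count by over 1.5 times. With 1 dye orientation alone, 59 to 79, 43 to 72 and 47 to 55 probes were at least 2-fold higher at 1, 2 and 4 h. Leaving out an orientation or a time gave 927 (without the 2 h sample) to 6268 (without replicate 2) probes that rose in the mean response. The rising slopes were then 8 to 17 (1 to 2 cluster genes) and the falling ones 13 to 30 (0 to 2 cluster genes), the lowest of each without replicate 2 over all probes. Slide and scan day could not serve as a block, since each slide held 1 array and all were read on the same day. The cause of these shifts was not tested. Depth here means signal over background, and it limits Cxcl2, Cxcl3 and Pf4 most, whose untreated spots lie closest to the negative controls.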
